A study of Mus musculus with 4 samples.

Results

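The Ms4a genes of leukocytes were examined in liver RNA sequencing of C57BL/6 mice on a steatohepatitis diet with or without 7-ketocholesterol (7KC). The genes were taken by symbol, as the Ms4a4 and Ms4a6 subfamilies and Ms4a7, with earlier results of these data known. Of the 8 genes chosen (Ms4a4a, Ms4a4b, Ms4a4c, Ms4a4d, Ms4a6b, Ms4a6c, Ms4a6d and Ms4a7), 7 were matched among 24346 symbols, and Ms4a4a was not analysed here. All 7 passed the filter on low values and were among the 12299 genes tested. The mice were male, 8 weeks old at the start of feeding, and wild type. For 3 weeks both groups received the NASH diet, which is high in fat, cholesterol and sucrose and contains bile salt. The 7KC group had this oxysterol, a product of cholesterol oxidation, mixed into the food, and the control group had the same food without it. Liver was taken on Day 0, before any skin treatment, and each group had 2 libraries. Both groups were on the NASH diet, so the comparison is of food with and without 7KC and not of the diet itself. The labels number the samples but do not state whether each came from a single mouse, so the p-values measure the spread between these libraries.

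Ms4a proteins (membrane-spanning 4-domains subfamily A) cross the membrane 4 times, with both ends in the cytoplasm, and several of them sit beside immune receptors and modify their signals. The family is best known for Ms4a1, the B-cell antigen CD20, and Ms4a2, the beta chain of the high-affinity IgE receptor on mast cells. The Ms4a4 and Ms4a6 genes and Ms4a7 are known mainly from T cells, monocytes and macrophages. In liver these cells are Kupffer cells, the resident macrophages, and leukocytes that enter from the blood.

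The 8 genes lie within 284 kb of mouse chromosome 19, from 11321039 to 11604849 of genome build GRCm38 (mm10), in the GENCODE M21 annotation. Of these, 6 are on the plus strand and 2, Ms4a7 and Ms4a6d, are on the minus strand. The order along the chromosome is Ms4a7, Ms4a4a, Ms4a4c, Ms4a4b, Ms4a6c, Ms4a6b, Ms4a4d and Ms4a6d. Ms4a4d (11536801 to 11558467) thus lies between Ms4a6b (11516512 to 11531256) and Ms4a6d (11586604 to 11604849). The plot of the gene cluster sets each position beside the change with 7KC.

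**Figure D1:**
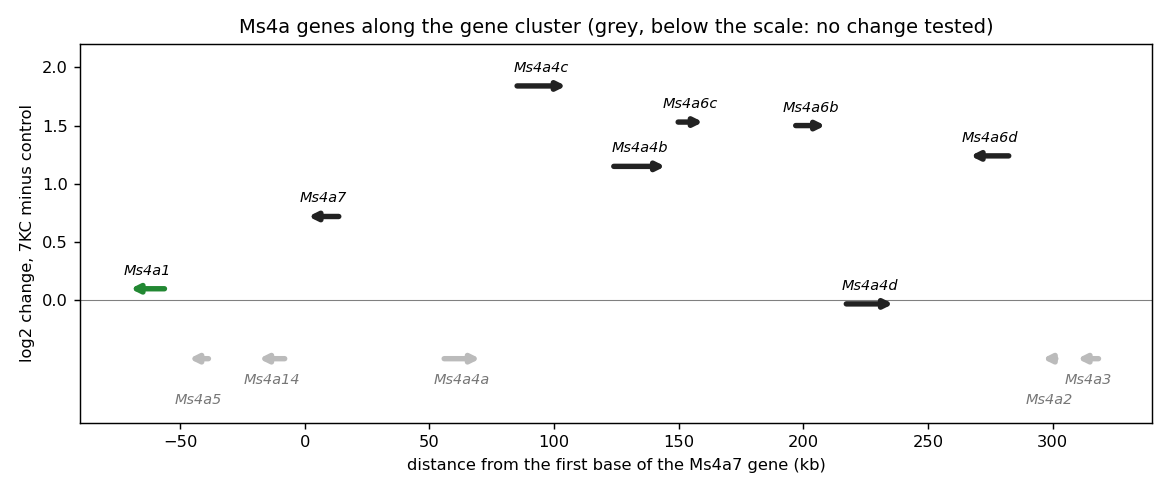
Ms4a genes are drawn as arrows in the direction of transcription, against distance from the first base of the Ms4a7 gene in kb (x axis) and the log2 change of FPKM + 0.5, 7KC minus control (y axis). Black arrows are the leukocyte Ms4a genes, the green arrow is Ms4a1, and grey arrows below the scale had no change tested. Ms4a4d, at -0.03, sits between Ms4a6b at 1.5 and Ms4a6d at 1.24.

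The values are FPKM, the fragments mapped to a gene scaled to the length of its exons and to the mapped fragments of the library. In the control group the highest of these genes were Ms4a6c, Ms4a6d and Ms4a4d, in this order in both libraries. In the 7KC group they were Ms4a6c, Ms4a6d and Ms4a6b, again in both libraries, and Ms4a4d stood 6th of 7 in 7KC replicate 1 and 7th in replicate 2. In control liver, Ms4a6c overlapped with Ms4a6d, and Ms4a7, Ms4a6b and Ms4a4b overlapped with each other, whereas Ms4a4d lay apart from its neighbours and Ms4a4c was lowest in both libraries. In 7KC liver, Ms4a6c again overlapped with Ms4a6d, Ms4a4c lay within the range of Ms4a4b, and Ms4a7 spanned the range from below Ms4a4d to above Ms4a4b. These are levels per exon length. The exact annotation used for the lengths is not given in the sources used here.

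Adding 7KC to the diet went with higher values of 5 of the 7 genes: Ms4a4b, Ms4a4c, Ms4a6b, Ms4a6c and Ms4a6d. In each of them the lower 7KC library exceeded the higher control library, and the ratio of the group means was between 2.40 for Ms4a4b and 4.07 for Ms4a4c. Over all genes tested, 25.1% separated in this direction, and 4.08% did so with a log2 change of at least 1, which all 5 reached. None of the 7 passed the threshold in limma, an adjusted p under 0.05 over all 12299 genes, which 0.48% of genes passed as higher and 0.0244% as lower. At an unadjusted p under 0.05, 5 of the 7 were higher, against 12% of all genes, and none was lower, against 5.81%. The median log2 change of the 7 genes was 1.24, beside -0.03 for all genes tested. When the libraries were rescaled to the same sum, 4 genes passed (Ms4a4b, Ms4a4c, Ms4a6b and Ms4a6c), with limma adjusted p-values from 0.0331 to 0.0378, and the median of all genes moved to 0.17. Over all genes, 3.27% passed as higher and 0.0569% as lower under this scaling. Without control replicate 1 these 4 genes also passed, with limma adjusted p-values from 0.0117 to 0.0458. In that fit the 1 control library left is assumed to vary as the 7KC pair does, and 3.16% of all genes passed as higher and 0.423% as lower. Over all 13 alternatives the limma adjusted p-values of these 4 genes ran from 0.0117 to 0.374. In bulk liver, more cells of a type and more RNA per cell cannot be told apart.

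**Figure D2:**
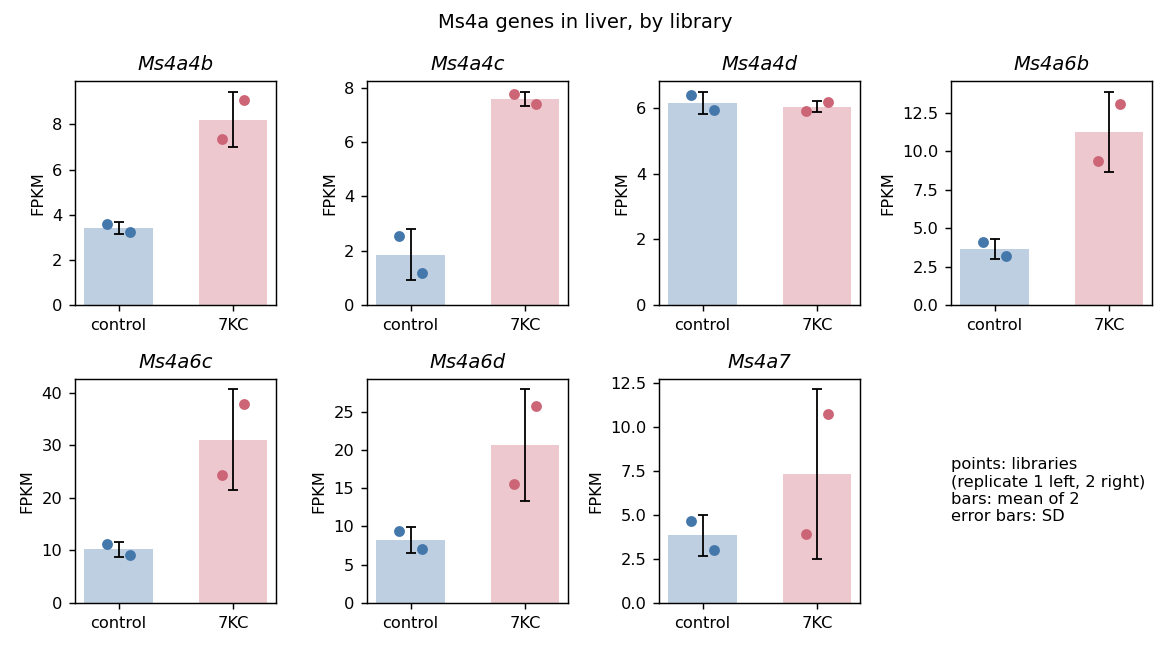
FPKM of the 7 Ms4a genes by group, with points for the libraries, bars for the mean of 2 and error bars for the SD. Both 7KC points lie above both control points in Ms4a4b, Ms4a4c, Ms4a6b, Ms4a6c and Ms4a6d, the groups coincide near 6 FPKM in Ms4a4d, and in Ms4a7 1 7KC library (10.7) stands above the other 3 (3.01 to 4.65).

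The Ms4a4 subfamily held both the largest difference and the smallest. Ms4a4c, a gene known from monocytes and other myeloid cells, was at 2.53 and 1.19 FPKM in control replicates 1 and 2 and at 7.77 and 7.39 FPKM in 7KC replicates 1 and 2. The 7KC libraries agreed closely, and both stood above the higher control library by a wide margin. The means were 1.86 ± 0.950 and 7.58 ± 0.275 FPKM (SD, n = 2 each), a log2 change of 1.84 (SE 0.29, 95% interval 1.11 to 2.56, limma adjusted p 0.0621). Only 0.528% of the genes tested had a log2 change as large. The lower control value corresponded to about 25 reads, where the counting error by itself is 20% (coefficient of variation), and without control replicate 2 the log2 change was 1.41.

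Ms4a4b, a T-cell protein that associates with the costimulatory receptor GITR, measured 3.61 and 3.23 FPKM in the control group against 7.35 and 9.09 FPKM in the 7KC group. Replicates were close in the control group, and the lower 7KC library was still above them. The log2 change was 1.15 (SE 0.15, 95% interval 0.77 to 1.53, limma adjusted p 0.0523). Ms4a4b had the smallest p of the 7 genes, at rank 112 of the genes tested.

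Ms4a4d, the third gene of this subfamily with values, measured 6.39 and 5.92 FPKM in the control group against 5.91 and 6.16 FPKM in the 7KC group. All 4 values lay within a narrow band and the groups overlapped. The log2 change was -0.03 (SE 0.12, 95% interval -0.33 to 0.27, limma adjusted p 0.927), and it was 0.17 with libraries rescaled to the same sum, which also moved the median of all genes to 0.17. About 106 to 143 reads per library stood behind these values. The 95% interval of Ms4a4d lay wholly below the intervals of the 5 genes with separated groups. As ratios to Ms4a4d in the same library, a denominator chosen after its values were seen, all 5 were higher in the 7KC group without overlap, as were 27.3% of all genes. The ratio of Ms4a4b to Ms4a4d was 0.564 and 0.546 against 1.24 and 1.48, and that of Ms4a6c to Ms4a4d was 1.76 and 1.55 against 4.11 and 6.14. The difference between genes was not tested. The log2 change of Ms4a4d also lay below those of all 5 pan-leukocyte markers described below (0.96 to 1.51). The set is called leukocyte Ms4a genes by family, and which liver cells gave the Ms4a4d values was not tested. As a share of the summed FPKM of the 7 genes, Ms4a4d took 15.2% and 18.1% with the NASH diet alone against 7.97% and 5.59% with 7KC.

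The promoter windows of the closest relatives are shown because these pairs had higher values together in the 7KC group, and that of Ms4a4d because its values did not separate. They run from 250 bases before to 50 bases after the gene start (RefSeq, GRCm38.p6, all on the plus strand). For Ms4a4c and Ms4a6b the RefSeq start differs from the GENCODE start. Their windows lie inside the GENCODE genes, which begin at 11404770 and 11516512. Capitals mark the longest run of letters that the Ms4a4 pair (20 bases) or the Ms4a6 pair (48 bases) has in common. No capitals are set in Ms4a4d.
Ms4a4b (chr19:11443308-11443607): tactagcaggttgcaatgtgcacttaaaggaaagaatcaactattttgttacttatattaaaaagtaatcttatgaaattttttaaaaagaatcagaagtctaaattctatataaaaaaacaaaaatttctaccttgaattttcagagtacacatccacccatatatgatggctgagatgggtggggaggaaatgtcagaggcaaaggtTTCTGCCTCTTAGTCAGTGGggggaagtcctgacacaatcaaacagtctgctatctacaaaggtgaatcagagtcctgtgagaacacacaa
Ms4a4c (chr19:11407411-11407710): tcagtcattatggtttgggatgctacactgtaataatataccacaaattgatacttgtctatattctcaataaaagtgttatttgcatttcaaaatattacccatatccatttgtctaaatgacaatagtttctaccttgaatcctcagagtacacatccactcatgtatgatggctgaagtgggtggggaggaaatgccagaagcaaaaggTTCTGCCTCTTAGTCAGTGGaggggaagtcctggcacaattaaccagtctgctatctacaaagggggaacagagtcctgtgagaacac
Ms4a6b (chr19:11518309-11518608): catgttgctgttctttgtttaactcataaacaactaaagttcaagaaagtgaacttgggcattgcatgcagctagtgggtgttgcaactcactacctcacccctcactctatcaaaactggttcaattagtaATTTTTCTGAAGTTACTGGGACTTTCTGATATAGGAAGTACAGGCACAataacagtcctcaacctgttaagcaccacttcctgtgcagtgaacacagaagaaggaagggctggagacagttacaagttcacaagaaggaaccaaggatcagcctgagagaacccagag
Ms4a6c (chr19:11469118-11469417): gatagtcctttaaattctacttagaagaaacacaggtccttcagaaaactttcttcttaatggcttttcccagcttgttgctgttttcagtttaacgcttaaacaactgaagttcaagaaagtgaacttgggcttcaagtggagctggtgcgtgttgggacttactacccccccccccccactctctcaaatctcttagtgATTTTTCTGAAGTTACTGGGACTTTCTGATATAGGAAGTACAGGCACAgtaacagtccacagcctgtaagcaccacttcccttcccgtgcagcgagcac
Ms4a4d (chr19:11536544-11536843): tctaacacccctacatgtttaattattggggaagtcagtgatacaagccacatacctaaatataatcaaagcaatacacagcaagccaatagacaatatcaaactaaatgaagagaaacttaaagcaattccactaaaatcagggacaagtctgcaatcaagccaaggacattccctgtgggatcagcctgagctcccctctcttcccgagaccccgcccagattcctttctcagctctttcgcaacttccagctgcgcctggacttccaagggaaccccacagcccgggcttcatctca

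In every other pair of windows, over all the chosen genes with a window, the longest identical run had 7 to 13 bases. Ms4a4d shared 9 bases with Ms4a4b and 9 with Ms4a4c, its relatives by name. The windows were also searched on both strands for 3 motifs: the interferon-stimulated response element (GAAA, any 2 letters, GAAA), the STAT site GAS (TTCNNNGAA) and a site of the myeloid factor PU.1 (GAGGAAGT). These letters were found in none of the 8 windows of Ms4a4a, Ms4a4b, Ms4a4c, Ms4a4d, Ms4a6b, Ms4a6c and Ms4a7. Ms4a6d was not searched. Among all 32851 windows of this length, 3.44% held the first, 8.3% the second and 3.2% the third.

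All 3 genes of the Ms4a6 subfamily had separated groups, and in each of them 7KC replicate 2 was the highest library. Ms4a6c, a gene of monocytes and macrophages, had the highest level of the 7 genes in every library, with 11.2 and 9.17 FPKM in the control group and 24.3 and 37.8 FPKM in the 7KC group. The 7KC mean was 3.04 times the control mean, but the 7KC values differed from each other by more than the control values did. The log2 change was 1.53 (SE 0.24, 95% interval 0.94 to 2.13, limma adjusted p 0.0617). Ms4a6c took 26.8% and 28% of the summed FPKM of the 7 genes in the control group and 32.8% and 34.4% in the 7KC libraries.

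Ms4a6b, known from T cells, including regulatory T cells, measured 4.09 and 3.17 FPKM in the control group against 9.39 and 13.1 FPKM in the 7KC group. The log2 change was 1.5 (SE 0.21, 95% interval 0.98 to 2.02, limma adjusted p 0.0548). Ms4a6d, a macrophage gene, measured 9.46 and 7.08 FPKM in the control group against 15.5 and 25.8 FPKM in the 7KC group. Its groups were separated, but the wide gap between the 7KC libraries left a log2 change of 1.24 with an SE of 0.27 (95% interval 0.55 to 1.93, limma adjusted p 0.111). Without 7KC replicate 2 the log2 change of Ms4a6d was 0.88.

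Ms4a7, a gene of tissue macrophages, measured 4.65 and 3.01 FPKM in the control group against 3.90 and 10.7 FPKM in the 7KC group. The groups overlapped: 7KC replicate 1 lay between the control values, and only 7KC replicate 2 was high. The log2 change was 0.72 (SE 0.46, 95% interval -0.45 to 1.90, limma adjusted p 0.46), and it was 0.05 without 7KC replicate 2 and 1.40 without 7KC replicate 1. This interval is too wide to place Ms4a7 with either Ms4a4d or the other genes. Trem2, a lipid receptor of macrophages, had the same order of libraries, with 4.75 and 3.02 FPKM in the control group and 4.63 and 16.3 FPKM in the 7KC group, and its difference was 1.11 on the log2 scale (SE 0.57, limma adjusted p 0.371).

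**Figure D3:**
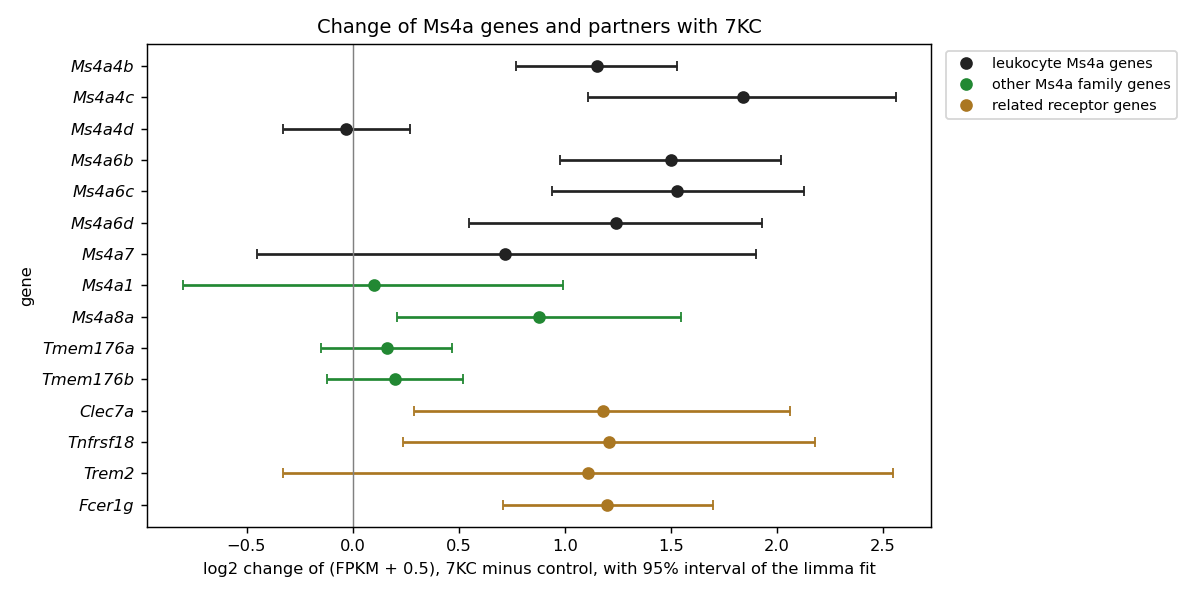
Log2 change of FPKM + 0.5 between the 7KC and control groups (x axis), with the 95% interval of the limma fit, for the leukocyte Ms4a genes (black), other Ms4a family genes and relatives (green) and related receptor genes (brown). The intervals of Ms4a4b, Ms4a4c, Ms4a6b, Ms4a6c and Ms4a6d lie above 0, that of Ms4a4d (-0.33 to 0.27) is narrow around 0, and that of Ms4a7 is wide.

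Reads can be exchanged between close relatives, so sequence sharing was counted. Of the 75-base windows in the annotated transcripts, which is the length of a read, 3.78% of those of Ms4a4c were also found in another gene, Ms4a4b. The share was 2.88% for Ms4a6c (Ms4a6b and Prdm11), 1.18% for Ms4a4b (Ms4a4c and Ms4a2), 0.632% for Ms4a6b (Ms4a6c and Ms4a6d) and 0.408% for Ms4a6d (Ms4a6b). Ms4a4d and Ms4a7 had no such window. By this count most read-length windows of each gene were its own. Only exact matches between annotated transcripts were counted, with all transcripts of a gene pooled. Near matches and copies elsewhere in the genome were not searched. How the authors counted shared reads is not stated, so the placing of reads was not tested.

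The rest of the family was taken from a list of 12 genes, of which 11 were matched and 4 passed the filter on low values. None of these 4 passed the limma threshold in either direction. Only 1, Ms4a8a, was higher at an unadjusted p under 0.05, beside 12% of all genes. Of the 4, 3 (Ms4a8a, Tmem176a and Tmem176b) were higher in the 7KC group without overlap, beside 25.1% of all genes. Ms4a8a, described in alternatively activated macrophages, measured 1.27 and 2.15 FPKM in the control group against 2.92 and 4.14 FPKM in the 7KC group. The groups did not overlap, and the difference was 0.88 on the log2 scale (SE 0.26, limma adjusted p 0.191) on about 19 to 50 reads per library. Ms4a1, which encodes CD20, measured 0.974 and 0.273 FPKM in the control group against 0.550 and 0.741 FPKM in the 7KC group. Both 7KC values lay between the control values, and the log2 change was 0.10 (SE 0.35, 95% interval -0.80 to 0.99, limma adjusted p 0.91), an interval that holds the values of both Ms4a4d and Ms4a8a. The relatives Tmem176a and Tmem176b were the most abundant of the list. Tmem176a was at 196 and 215 FPKM in the control group against 224 and 235 FPKM in the 7KC group. Tmem176b was at 320 and 299 FPKM against 346 and 363 FPKM. Their log2 changes were 0.16 (limma adjusted p 0.54) and 0.20 (limma adjusted p 0.46). Ms4a2, the mast-cell gene, reached 0.033 FPKM at most and Ms4a3 reached 0.182 FPKM at most over the 4 libraries. Ms4a5, Ms4a10, Ms4a13, Ms4a15 and Ms4a18 were listed at 0 in every library.

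Of 5 genes of receptors linked to Ms4a proteins, 3 had higher values in both 7KC libraries than in either control library, as had 25.1% of all genes. Clec7a encodes dectin-1, which works together with Ms4a4a in macrophages, and was at 16.5 and 12.7 FPKM in the control group against 23.3 and 47.7 FPKM in the 7KC group. Tnfrsf18 encodes GITR, the partner of Ms4a4b, and was at 1.36 and 0.366 FPKM against 2.74 and 2.18 FPKM. Fcer1g, the signaling chain shared by Fc receptors, was at 113 and 78.7 FPKM against 218 FPKM in both 7KC libraries. In this list 4 genes were tested, none passed the limma threshold, and 3 had an unadjusted p under 0.05, all of them higher, beside 12% of all genes. Their log2 changes were 1.18, 1.21 and 1.20 (limma adjusted p 0.191, 0.206 and 0.0648). Trem2, the remaining gene tested, overlapped between groups (4.75 and 3.02 FPKM against 4.63 and 16.3 FPKM, log2 change 1.11, limma adjusted p 0.371). Fcer1a, the IgE-binding chain, was below the filter, at no more than 0.089 FPKM.

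Leukocyte markers also had higher values in the 7KC libraries, as the plot of changes by gene list shows. Over all genes tested 25.1% were higher without overlap. All 5 pan-leukocyte markers were, with sums of 131 to 223 FPKM in the control group and 437 to 485 FPKM in the 7KC libraries and a median log2 change of 1.31. In the T and NK cell list this held for 9 of 9 tested genes (sums 14.3 to 21.4 and 45.4 to 49.4 FPKM, median 1.11). Among them Klrb1c, at 0.336 and 0.358 FPKM against 0.839 and 0.654 FPKM, passed the filter on low values only through its 7KC libraries. In the monocyte and macrophage list 6 of 9 were higher without overlap (453 to 694 and 1223 to 1897 FPKM, median 1.23). Within this list, Ly6c2, a marker of inflammatory monocytes, was at 11.1 and 5.39 FPKM against 44.2 and 42.2 FPKM. Of 5 markers of resident Kupffer cells, 3 were higher without overlap, 1 (Vsig4) was lower without overlap and Clec4f overlapped. Their sums were 287 to 288 FPKM in the control group and 335 to 504 FPKM in the 7KC group. The B cell list had 2 of 3 tested genes higher without overlap (sums 2.9 to 7.77 and 7.85 to 8.31 FPKM), the neutrophil list 1 of 3 (16.5 to 30.4 and 34.1 to 34.8 FPKM) and the dendritic cell list 2 of 4 (4.3 to 5.1 and 7.5 to 7.99 FPKM). Of the mast cell list, Kit was the only gene tested, the sums of the list were 1.91 to 2.25 and 2.66 to 3.31 FPKM, and Mcpt4 was listed at 0 in every library. No gene of any of these lists passed the limma threshold. Their part in the values of the Ms4a genes was not tested.

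**Figure D4:**
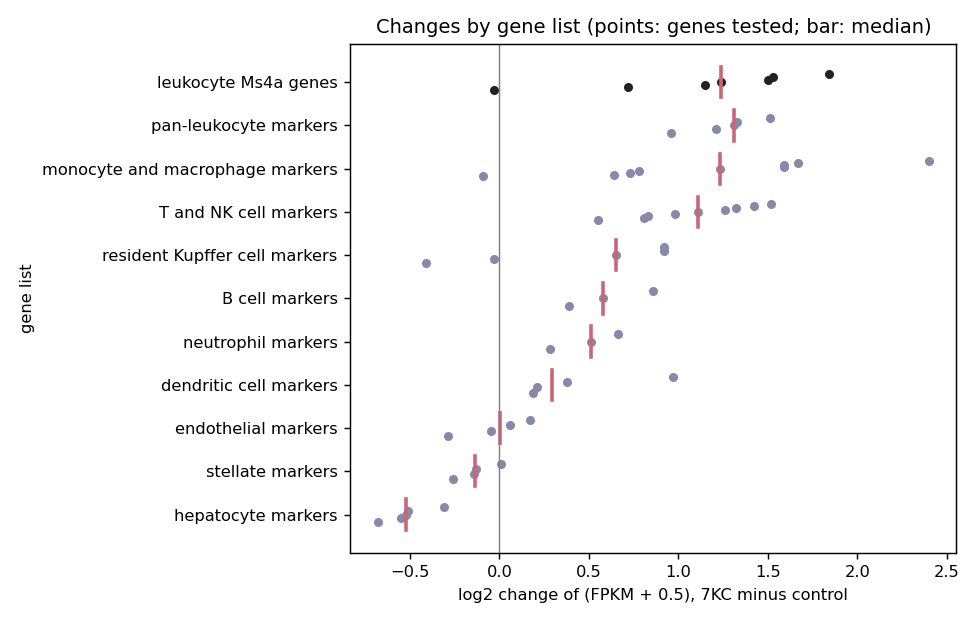
Log2 change of FPKM + 0.5 between the 7KC and control groups (x axis) for the tested genes of each list (points), with the median of the list as a bar. The median of the leukocyte Ms4a genes (1.24) lies near those of the pan-leukocyte (1.31) and the monocyte and macrophage markers (1.23), while the hepatocyte markers have a median of -0.52.

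Hepatocyte markers had lower values in the 7KC libraries, and none of the 5 passed the limma threshold. Their sums were 54621 to 64929 FPKM in the control group and 34426 to 46506 FPKM in the 7KC libraries, and 3 of 5 were lower without overlap, beside 27.4% of all genes. The 10 most abundant genes took 22.3% to 23% of the summed FPKM in the control group and 17.9% to 19.8% in the 7KC group. Endothelial and stellate markers had medians of 0.00 and -0.13, with sums of 35.4 to 45.7 and 51.8 to 52.4 FPKM in the control group and 32.6 to 48.6 and 41.9 to 48.9 FPKM in the 7KC group. The part of these shifts in the values of the Ms4a genes was not tested.

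To set the Ms4a genes beside 1 leukocyte marker, the FPKM of each was divided by that of Ptprc (CD45, the common leukocyte antigen) in the same library. Ptprc was chosen after the values were seen. It is 1 of the 5 pan-leukocyte markers, whose log2 changes ran from 0.96 (Cd53) to 1.51 (Cd52). Which Ms4a genes overlap depends on the marker used, and ratios to the other markers of that list are not given. Ptprc measured 8.47 and 5.65 FPKM in the control group against 15.5 and 20.6 FPKM in the 7KC group. The ratios of Ms4a4b (0.426 and 0.573 against 0.473 and 0.441), Ms4a6c (1.33 and 1.62 against 1.56 and 1.83) and Ms4a6d (1.12 and 1.25 against 0.999 and 1.25) overlapped between groups. For these 3 genes the difference between groups was not separated from the spread of the libraries once Ptprc was divided out.

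Relative to Ptprc, 2 genes were higher in the 7KC group without overlap, as were 1.44% of all genes tested. For Ms4a4c the ratio was 0.299 and 0.211 with the NASH diet alone against 0.5 and 0.358 with 7KC, and for Ms4a6b it was 0.483 and 0.561 against 0.604 and 0.635. The gap between the groups was small in both. For Ms4a6b the nearest values, 0.561 and 0.604, differed by less than the counting error of its lowest library (9.62%). Another 2 genes were lower without overlap, as were 91.8% of all genes. These were Ms4a4d, at 0.755 and 1.05 against 0.380 and 0.299, and Ms4a7, at 0.548 and 0.533 against 0.251 and 0.519. For Ms4a7 the upper 7KC library lay just below the control libraries. The same was done with Adgre1 (F4/80, a macrophage antigen) and with Cd3e (a chain of the T-cell receptor complex). Both are from marker lists chosen with earlier results of these data known. Ms4a4c had ratios to Adgre1 of 0.255 and 0.0821 against 0.545 and 0.258, and the gap between the nearest values, 0.255 and 0.258, was smaller than the counting error. Its ratios to Cd3e were 1.07 and 0.562 against 1.18 and 1.32. The nearest values, 1.07 and 1.18, were also close, and about 66 Ms4a4c reads stood behind the first. Ms4a6b was higher under Adgre1 and overlapped under Cd3e, Ms4a6c was higher under Adgre1 and overlapped under Cd3e, and Ms4a4d was lower under Cd3e and overlapped under Adgre1. Ms4a4b, Ms4a6d and Ms4a7 overlapped under both. Over all genes 1.85% were higher and 47% lower under Adgre1, and 0.951% were higher and 91.7% lower under Cd3e.

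**Figure D5:**
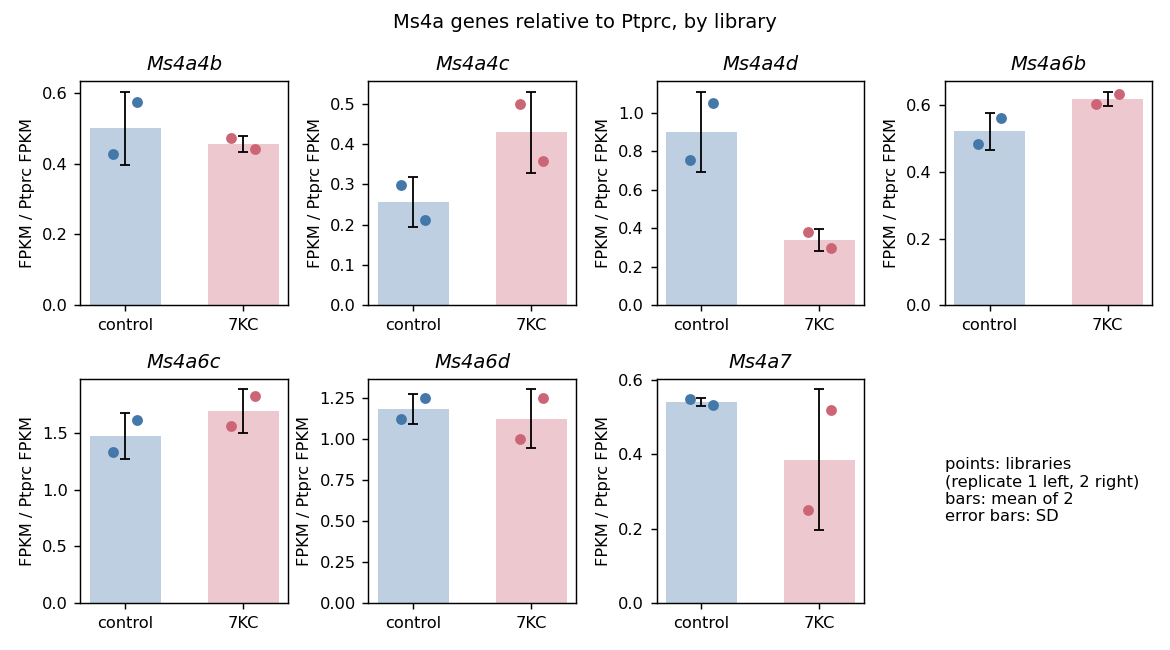
FPKM of the 7 Ms4a genes divided by the FPKM of Ptprc in the same library, by group, with points for the libraries, bars for the mean of 2 and error bars for the SD. The groups overlap in Ms4a4b, Ms4a6c and Ms4a6d, Ms4a4c and Ms4a6b are higher and Ms4a4d and Ms4a7 lower in the 7KC group without overlap.

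Other genes with the pattern of the Ms4a genes were found by the distance between centred log2 profiles over the 4 libraries, measured from the mean profile of the 7 genes. The nearest 5 were Sirpa, Pstpip1, Sorl1, Tyrobp and Atp8b4, at distances of 0.0207 to 0.0687. Sirpa, an inhibitory receptor of myeloid cells, measured 29.9 and 23.1 FPKM in the control group against 49 and 70.2 FPKM in the 7KC group. Tyrobp, the adaptor DAP12 of myeloid and NK cell receptors, was at 145 and 111 FPKM against 243 and 332 FPKM. The others had lower levels. Pstpip1 was at 1.95 and 1.4 FPKM against 3.49 and 5.23 FPKM, and Sorl1 at 1.26 and 0.822 against 2.34 and 3.52. Atp8b4 was at 0.599 and 0.338 FPKM against 1.28 and 1.87 FPKM, and its control values alone averaged below the filter. None of these 5 passed the limma threshold (adjusted p 0.082 to 0.116). Among the Ms4a genes themselves the distance was smallest for Ms4a6d (0.191) and Ms4a4b (0.221) and largest for Ms4a4d (1.22), followed by Ms4a4c (0.868) and Ms4a7 (0.745).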

How the data were processed

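Liver messenger RNA of 2 control and 2 7KC libraries was analysed. The authors prepared stranded libraries, sequenced them as 75-base single-end reads, mapped them to mm10 with TopHat and Bowtie2, and deposited FPKM, 1 value per symbol and library. The study's methods name Cufflinks for this step and the submitters' processing notes name Cuffdiff 2.2.1. The settings for multi-mapped reads are not given in the sources used here. Depth, estimated from the size of 1 read in low values of single-transcript genes, was 17060000 and 13780000 mapped reads in the control group and 13620000 and 13760000 in the 7KC group. Of the low values 68.8% to 72.2% then came within 0.1 of a whole read (20% by chance), and read numbers per gene are approximate.

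Genes averaging 0.5 FPKM or more over the 4 libraries were compared as log2(FPKM + 0.5), which understates changes of low genes, with limma 3.58.1 in R 4.3.3 (trended prior variance, group as the only term, Benjamini-Hochberg adjustment over all genes). The fit was tested on simulated data. The Ms4a genes, lists and motifs were chosen with earlier results of these data known. Named genes were the chosen genes, the family, receptor and marker lists, and the 5 nearest profiles. The alternatives were other pseudocounts, filters, scalings and prior variance, a replicate block and leaving out each library. Prdm11 and Ms4a2 are named where they share read-length windows.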

Additional observations from a re-analysis of the deposited data

How the results depend on the processing

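With 2 libraries per group, limma had 2 residual degrees of freedom per gene, and the calls of the Ms4a genes stood close to the threshold. Against 0 of 7 genes past the threshold (5 at an unadjusted p under 0.05), 4 were higher after scaling every library to 1 common sum (402 higher and 7 lower over all genes). No Ms4a gene was past the threshold as lower under any alternative. Where 1 library is left out, the lone library of its group is assumed to vary as the other group does. Only log2 changes are given for these fits. The median log2 change of the 7 genes was 1.0 to 1.60 without 1 library, highest without 7KC replicate 1. Of the 7 genes, 6 kept a positive log2 change under all 13 alternatives that gave them a value. Ms4a4d changed sign, to 0.17 after this scaling and to 0.025 and 0.00059 without control replicate 1 and 7KC replicate 1, within a range of -0.078 to 0.025 without 1 library. With a replicate block 0 of the 7 genes passed and 0 genes passed over all genes, against 59 higher and 3 lower without the block. Deviations of same-numbered libraries had a correlation of -0.141 across genes, and the numbers are not stated to pair the samples. With the crossed pairing, chosen after seeing the data, 5 of the 7 genes and 551 genes over all were higher. Over all genes, the count of higher genes was also 111 with a pseudocount of 1 FPKM and 0 without a filter.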
